A study of Mus musculus with 4 samples.

Results

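The genes described here are non-coding snoRNA host genes, measured in RNA immunoprecipitates of LARP7 from mouse testis. They were chosen by symbol, as the gene models Gas5, Snhg1, Snhg3, Snhg4, Snhg5, Snhg6, Snhg7, Snhg8 and Snhg12, and Mir5117, a model that lies within the Gas5 locus. These are 10 of the 50600 gene models in each library. RNA was pulled down from testes of 8-week-old C57BL/6 mice with an antibody to LARP7 (2 libraries) or with IgG, which measures RNA that sticks without a specific antibody (2 libraries). No mutation or treatment is named in the labels for either group, and no pooling of animals is described. The series' design text calls the 2 libraries of an antibody biological replicates but names no animals, so a p-value here covers no more than how far these libraries lie from each other.

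A snoRNA host gene makes a long transcript whose introns contain small nucleolar RNAs. Box C/D snoRNAs guide ribose methylation and box H/ACA snoRNAs guide pseudouridylation, mostly of ribosomal RNA and spliceosomal RNA. After splicing, the intron is trimmed to the snoRNA, which is stable in a protein particle, while the joined exons of most non-coding hosts are exported and decay quickly. LARP7 is known to bind 7SK RNA and U6 RNA, and in mouse male germ cells it is known to be needed for box C/D snoRNA-guided ribose methylation of U6. Many of these hosts are also known as terminal oligopyrimidine (TOP) genes, whose transcripts begin with a C followed by a run of pyrimidines.

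The starts of the hosts that were called higher with the LARP7 antibody are shown because this tract is the feature of sequence for which the family is known. Each line holds 30 bases before and 30 bases from the annotated RefSeq start onwards (GRCm38.p6, the assembly of mm10), 5′ to 3′ on the strand of the gene. Capitals mark a tract of at least 5 pyrimidines (C or T) that begins with a C within 5 bases of the start. For Gas5, which has a pair of annotated starts, the one with a tract is shown.
Gas5, chr1:161035136-161035195, plus strand: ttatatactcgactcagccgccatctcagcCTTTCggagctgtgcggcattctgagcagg
Snhg12, chr4:132308648-132308707, plus strand: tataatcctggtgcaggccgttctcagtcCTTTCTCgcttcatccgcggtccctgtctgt
Snhg1, chr19:8723457-8723516, plus strand: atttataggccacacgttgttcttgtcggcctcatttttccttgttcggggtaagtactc
Snhg5, chr9:88522868-88522927, minus strand: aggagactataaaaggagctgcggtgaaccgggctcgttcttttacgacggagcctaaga
The tract was found at the starts of Gas5 and Snhg12, and none that met the rule was found at those of Snhg1 and Snhg5. Over the table, 5 of 8 host starts (from 7 hosts) had the tract, beside 18.3% of all 32851 starts, searched on the strand of the gene only. The other hosts with a tract were Snhg8, which was not called, and Snhg3 and Snhg7, which had too few counts for the main fit. Snhg4 and Snhg6 had no start there. A match describes the letters in the window and shows no site of initiation.

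The libraries held 4411271 to 6994514 expected counts (read counts estimated by RSEM, which splits multiply mapping reads between models). Rn7sk, the 7SK RNA known to bind LARP7, reached 316542 and 931240 counts with LARP7, against 38611 and 61786 with IgG (edgeR log2 change 4.53, adjusted p = 0.0167). The labelled tissue was seen in its germ cell markers, since all 5 markers each of spermatogonia, spermatocytes, round and elongating spermatids had counts in every library. The elongating spermatid markers summed to 250 to 389 CPM with LARP7 and 957 to 1080 with IgG, and the round spermatid markers to 24.6 to 32.7 and 81.0 to 94.6, with 3 of 5 lower in each list. The spermatocyte markers summed to 131 to 168 and 231 to 238 CPM (0 of 5 called by edgeR, 2 lower at an unadjusted p under 0.05), and the spermatogonia markers to 16.1 to 21.3 and 11.1 to 12.0 (1 of 5 higher). The Leydig markers summed to 42.5 to 49.4 and 46.8 to 49.5 CPM (0 of 5 called by edgeR, 0 at an unadjusted p under 0.05). The Sertoli markers summed to 30.8 to 41.1 CPM and 61.1 to 69.4 (1 of 3 tested was lower), and the blood markers to at most 2.86 CPM in any library. With library totals, where 47.1% of all models were called lower, the markers called lower were 5 of 5 for either spermatid list, 4 of 5 for spermatocytes and for Leydig cells, 3 of 3 tested for Sertoli cells and 1 of 5 for spermatogonia, and 0 were higher (edgeR). The part of these differences in the host results was not tested. These values compare RNA recovered with each antibody from a whole tissue. They measure neither the number of cells of a type nor the RNA per cell. CPM here means counts scaled to a fixed total per library after TMM, a method that sets the bulk of genes level between libraries.

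Of the 10 host models, 8 had enough counts to be tested, 5 were higher with the LARP7 antibody and 0 were lower (edgeR quasi-likelihood test, adjusted p under 0.05 over 12234 gene models; 6 and 0 at an unadjusted p under 0.05). The 5 were Snhg12, Snhg1, Gas5, Snhg5 and Mir5117. Mir5117 lies within Gas5 and is not a separate host, but the counts and medians given for the hosts include it. Over all gene models 14.5% were called higher and 9.69% lower. The median log2 fold change of the 8 was 2.41, beside -0.05 over all models tested. Both LARP7 libraries lay above both IgG libraries in CPM for 6 of the 8, where 32.9% of all tested models did. The size of every fold depends on the scaling. With library totals alone the median of all models was -1.47 and that of the 8 hosts 1.04, and 1 host (Snhg12) was called higher and 0 lower, against 3.95% and 47.1% of all models. On that scale 5 of the 8 had both LARP7 libraries above both IgG libraries, a pattern seen in 9.75% of all tested models. The direction was the same in both scalings for 7 of the tested hosts and turned for Snhg8. On another scale, the deposited TPM (transcripts scaled by length to a fixed total) as log2(TPM + 1), Snhg12 (0.36), Gas5 (0.16) and Snhg1 (0.13) stayed above 0 and the other 5 tested hosts lay below it, by limma with no call. The median there was -0.29 for all models and -0.08 for the hosts, and 7 of the 8 hosts lay above that of all models. Snhg12, Snhg4, Snhg6 and Snhg8 had at most 1.27 TPM in any library, so the added 1 pulls their values toward 0.

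**Figure D1:**
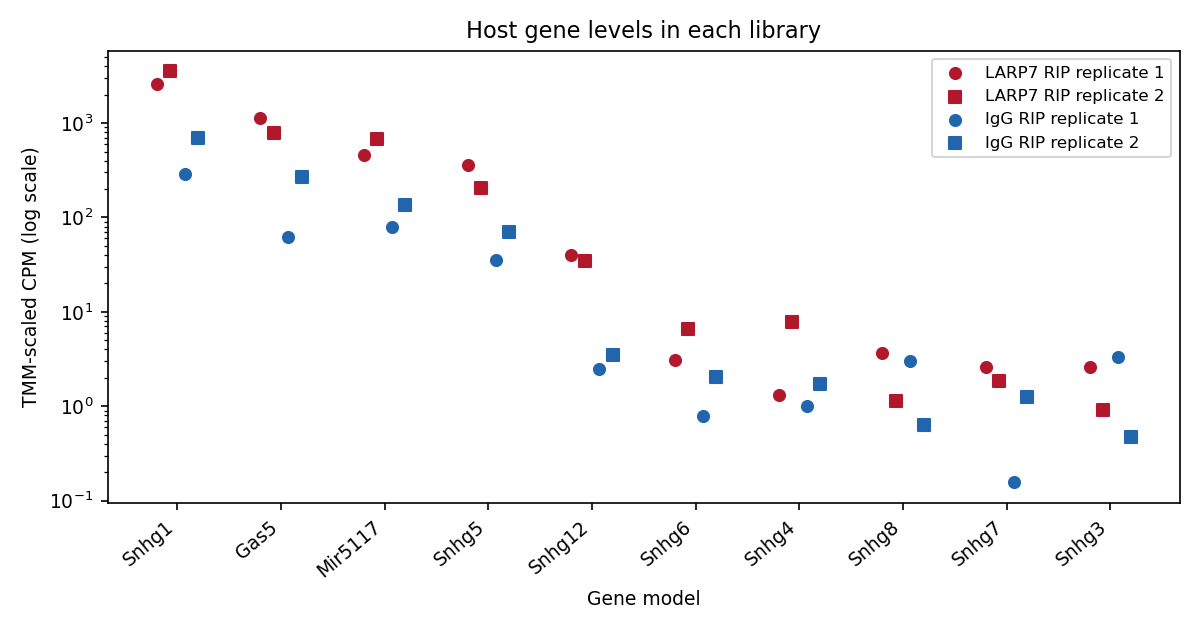
TMM-scaled CPM (log axis) of the 10 host models in each of the 4 libraries, ordered by the mean in the LARP7 libraries. Red points are LARP7 libraries and blue points IgG libraries, and for Snhg1, Gas5, Mir5117, Snhg5, Snhg12 and the low-count Snhg6 and Snhg7 both red points lie above both blue ones.

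Snhg12, which carries the H/ACA RNAs Snora16a, Snora44 and Snora61 and the C/D RNA Snord99, rose most among the tested hosts. Counts were 153 and 149 with LARP7 and 32.4 and 22.3 with IgG. The groups lay far apart, and the replicates of each lay close together. In CPM the means were 37.0 ± 3.93 with LARP7 and 2.99 ± 0.694 with IgG (SD, n = 2 each). That was a 12.5-fold difference (edgeR log2 change 3.64 with SE 0.44, adjusted p = 0.00223). The rise was called with library totals (log2 fold change 2.23, SE 0.55, adjusted p = 0.0003) and with each library left out in turn (3.40 to 3.93). The gene lies on chromosome 4 (132308678 to 132311024, mm10), with 7 annotated isoforms counted together as ENSMUSG00000086290.8.

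Snhg1, the host of the C/D RNAs Snord22 and Snord25 to Snord31, had the most counts of the family in every library. They were 9897 and 15419 with the LARP7 antibody and 3742 and 4405 with IgG. The LARP7 libraries were both higher, with means of 3055 ± 684 and 494.6 ± 286 CPM (SD, n = 2 each). The difference was 6.18-fold (edgeR log2 change 2.63 with SE 0.76, adjusted p = 0.0311). It was not called with library totals (1.31, adjusted p = 0.0876). Nor was it called when LARP7 replicate 1 (2.82, adjusted p = 0.102), LARP7 replicate 2 (2.38, adjusted p = 0.195) or IgG replicate 1 (2.13, adjusted p = 0.0609) was left out. Without IgG replicate 2 it was called at 3.44. Snhg1 lies on chromosome 19 (8723487 to 8726326) and its model joins 18 isoforms (ENSMUSG00000108414.1). Multiple mapping added little to its error, since the RSEM posterior SD was at most 0.23% of the count.

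Gas5, the growth-arrest transcript that carries Snord44, Snord47 and the Snord74 to Snord81 group, had 4377 and 3386 counts with LARP7 and 797 and 1694 with IgG. IgG replicate 2 lay well above IgG replicate 1, but below both LARP7 libraries. Means were 957 ± 255 and 165 ± 146 CPM (SD, n = 2 each), a 5.80-fold difference (edgeR log2 change 2.54 with SE 0.79, adjusted p = 0.041). With library totals the value was 1.21 (adjusted p = 0.0948). Leaving out LARP7 replicate 1 (2.22, adjusted p = 0.152), LARP7 replicate 2 (2.78, adjusted p = 0.112) or IgG replicate 1 (1.84, adjusted p = 0.102) ended the call, and leaving out IgG replicate 2 gave 4.00. Gas5 (ENSMUSG00000053332.13, 25 isoforms) lies on chromosome 1 (161034601 to 161038539), where it overlaps the protein-coding gene Zbtb37. Whether the authors' counting used strand is not given in the sources used here, so reads in the overlap cannot be told apart. Zbtb37 changed by 2.12 on the log2 scale (edgeR adjusted p = 0.0354).

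Mir5117 is an annotated 84-nt model whose symbol RefSeq lists as a synonym of Gas5. It had 1758 and 2938 counts with LARP7 and 1005 and 857 with IgG. The groups did not overlap, with means of 566 ± 154 and 107 ± 40.4 CPM (SD, n = 2 each; edgeR log2 change 2.40 with SE 0.65, adjusted p = 0.0249). The call was lost with library totals (1.06, adjusted p = 0.133), without LARP7 replicate 2 (2.09, 0.0998) and without IgG replicate 1 (2.06, 0.0713). Counts of Mir5117 per count of Gas5 were 0.402 and 0.868 with LARP7 and 1.26 and 0.506 with IgG, so the groups overlapped and the short model did not keep a fixed proportion to its locus. Since the model lies in the Gas5 locus, its rise is no separate support for that of Gas5.

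Snhg5, host of the C/D RNAs Snord50a and Snord50b, had 1393 and 886 counts with LARP7 and 454 and 447 with IgG. The IgG libraries were nearly equal in counts and both below the LARP7 libraries. The means were 283 ± 112 and 53.1 ± 24.9 CPM (SD, n = 2 each), a 5.33-fold difference (edgeR log2 change 2.41 with SE 0.63, adjusted p = 0.0227). It was not called with library totals (1.02, adjusted p = 0.126), without LARP7 replicate 1 (1.92, 0.0651) or without IgG replicate 1 (2.01, 0.0782). Snhg5 (ENSMUSG00000097195.9) lies on chromosome 9 (88521052 to 88522897).

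**Figure D2:**
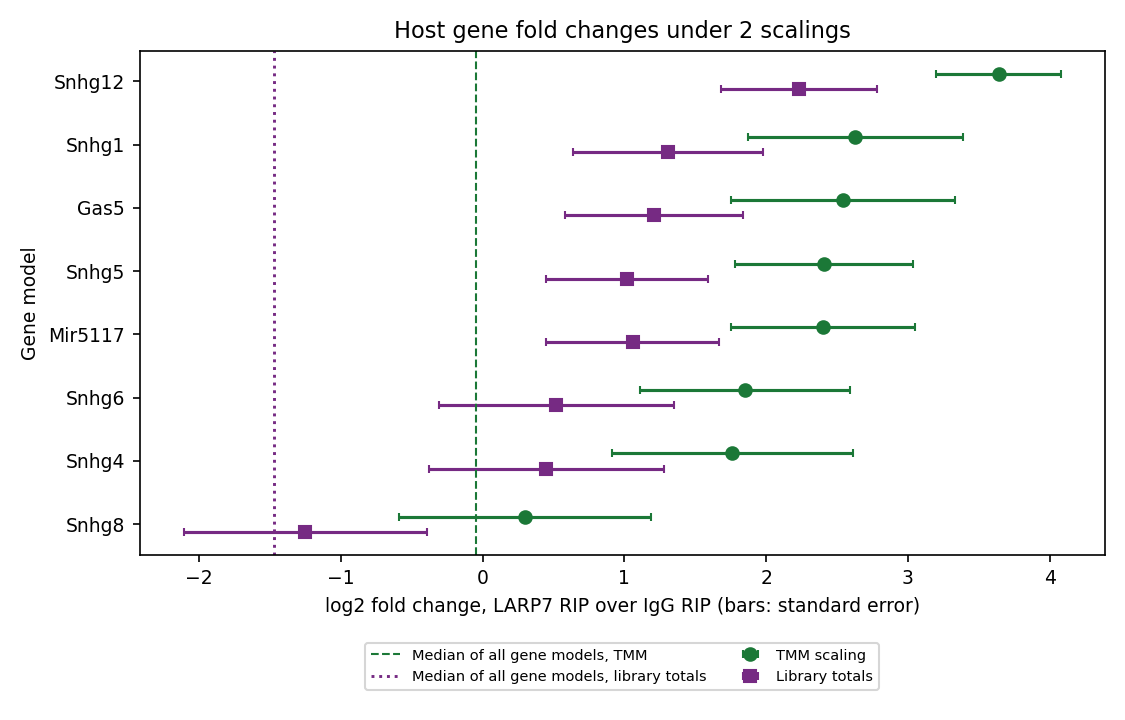
The log2 fold change (LARP7 RIP over IgG RIP) of the 8 tested host models, with standard errors, under TMM scaling (green) and library totals (purple). Vertical lines mark the medians of all tested gene models, -0.05 and -1.47, and Snhg8 is the model whose points lie on opposite sides of 0.

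The other hosts had few counts, at most 43.1 in any library. Snhg6, which carries Snord87, had 12 and 29 counts with LARP7 and 10 and 13 with IgG (edgeR log2 change 1.85 with SE 0.74, adjusted p = 0.0871). Its CPM values did not overlap with TMM but did with library totals (0.52, adjusted p = 0.617), and it passed without IgG replicate 2 (2.67, 0.0172). It overlaps the protein-coding gene Mcmdc2, which had 1.28 (adjusted p = 0.18). Snhg4, which carries Snora74a, had 5 and 34.1 counts against 13.3 and 11.2 (1.76, SE 0.85, edgeR adjusted p = 0.146). Its value rested on LARP7 replicate 2, without which it was -0.06, and it passed the threshold without IgG replicate 2 (2.20, adjusted p = 0.0454). For neither gene was a difference between antibodies called in the fit of all 4 libraries.

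Snhg8 is the host of Snora24, and Snhg3 that of the H/ACA RNAs Snora73a and Snora73b, which act in ribosomal RNA processing. Counts of both hosts were higher in replicate 1 of either antibody. Snhg8 had 39.0 counts and Snhg3 43.1 in IgG replicate 1, against 4.26 and 3.14 in IgG replicate 2. With LARP7 they had 14.0 and 5.34, and 10 and 4.2. IgG replicate 1 was thus the highest of the 4 libraries in raw counts for both genes, and the groups overlapped. In TMM-scaled CPM Snhg8 was highest in LARP7 replicate 1 (3.64, against 3.05 in IgG replicate 1). The RSEM posterior SD reached 19.2% of the count for Snhg8 and 11.7% for Snhg3, so the division of reads between models adds to their error. Snhg8 stood at 0.30 on the log2 scale (SE 0.89, edgeR adjusted p = 0.827), at -1.25 by library totals and at 1.87 without IgG replicate 1. Snhg3 did not pass the filter on low counts. Snhg7, host of Snora17 and Snora43, did not pass it either, with 10 and 8 counts with LARP7 and 2 and 8 with IgG. No difference was called for Snhg8, and Snhg3 and Snhg7 were not tested in this fit. Without the filter all 10 models were tested, and the 5 called higher were the same as with it.

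**Figure D3:**
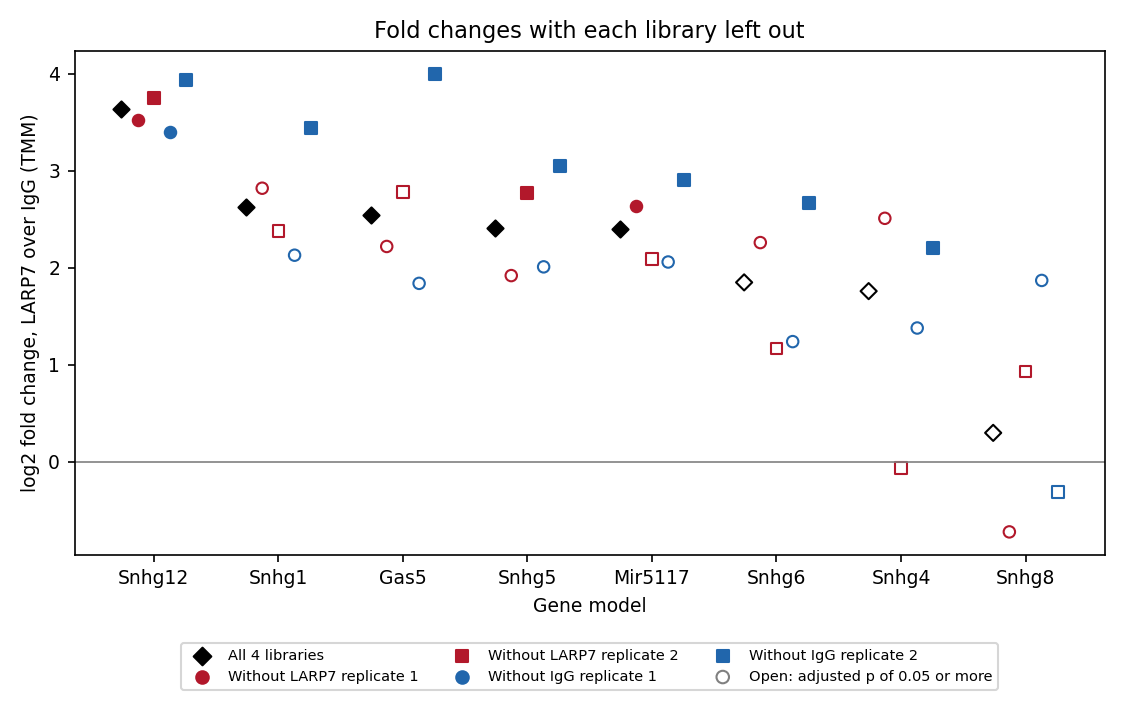
The log2 fold change of each tested host (TMM scaling) with all 4 libraries (diamonds) and with each library left out in turn. Filled symbols are called at an adjusted p under 0.05, and Snhg12 is the host that is filled in all 5 fits.

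Levels can be set side by side between genes only per length, for which the TPM of the authors was used. In the IgG libraries Snhg1 had 66.6 ± 9.93 TPM, Gas5 24.1 ± 13.9 and Snhg5 8.98 ± 0.00707 (SD, n = 2). In the LARP7 libraries the order was the same, at 82.2 ± 54.6, 25.3 ± 7.19 and 7.60 ± 0.799 TPM. Gas5 and Snhg5 lay beyond each other's range in both groups, and so did Snhg1 and Gas5. Snhg12 came next with LARP7, at 0.860 ± 0.339 TPM. With IgG it stood at 0.440 ± 0.113 TPM, below Snhg3, Snhg7 and Snhg8. The means of the other 5 hosts were 0.085 to 0.555 TPM with LARP7 and 0.255 to 0.870 with IgG, and neighbours in these orders overlapped except Snhg6 and Snhg4 with IgG. Mir5117 stood at 477 ± 323 and 456 ± 25.7 TPM, but its effective length was only 24.5 to 28.1 nt, so its place in the order depends on that estimate. In TPM the groups overlapped for Snhg1, Gas5 and Mir5117, were apart for Snhg12 with LARP7 higher, and for Snhg5 IgG was the higher group.

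As a share of all counts the 10 models took 0.255% and 0.352% in the LARP7 libraries and 0.0878% and 0.169% in the IgG libraries. Both LARP7 shares were thus above both IgG shares. Snhg1, Gas5, Mir5117 and Snhg5 made up 97.7% to 99.2% of those counts in each library. The 19 snoRNA models assigned to these hosts took 0.873% and 1.34% with LARP7 and 0.646% and 1.66% with IgG, so their groups overlapped. The deposited length of a host model, which weights its isoforms by their estimated shares, was 815 and 778 nt for Gas5 with LARP7 and 801 and 747 nt with IgG. For Snhg1 it was 853 and 884 nt against 894 and 884 nt, and for Snhg12 925 and 932 nt against 892 and 916 nt. For Gas5 the groups overlapped, and for the other genes they lay close together.

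The next question was whether a host and the snoRNAs in its introns moved alike. RefSeq places 8 snoRNAs each within Gas5 and Snhg1, but most have no symbol that the files use, so only named snoRNAs could be followed. Assignment was by RefSeq coordinates, or by a list of known cargo where the symbol had none, and the table gives no strand for snoRNAs. Of 15 tested snoRNA models, 2 were higher and 1 lower with LARP7 (edgeR; 5 and 1 at an unadjusted p under 0.05), shares near the 14.5% and 9.69% of all models. Their median on the log2 scale was 0.77 (-0.51 by library totals). The 1 lower call and 1 of the 2 higher calls fell on the pair of Snora16a models, which share reads. Over all RefSeq snoRNAs, 58 of 151 tested models (38.4%) were called higher and 3 (1.99%) lower, with a median of 1.62. By library totals these were 24 and 11, with a median of 0.27.

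Within a library the ratio of host to snoRNA counts needs no scaling between libraries. It could be formed for 5 hosts with at least 10 counts on both sides in every library. The ratio also depends on how RSEM divided any reads that map to both a host and a snoRNA inside it, which was not tested. The posterior SD reached 5.42% of the host count for Snhg12 and 0.671% for Gas5. For Snhg12, Gas5, Snhg1 and Snhg6 the ratio was higher in both LARP7 libraries than in both IgG libraries, and for Snhg5 the groups overlapped. Each test over 2 libraries against 2 can reach no exact two-sided permutation p below 0.333, so none could pass a threshold.

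For each 100 counts of its snoRNAs, Snhg12 had 5.65 and 7.99 host counts with LARP7 and 1.30 and 0.757 with IgG. The log2 ratio differed by 2.73 (a 6.65-fold difference, exact two-sided permutation p = 0.333), beyond the SD between replicates of 0.46. Snord99, its C/D RNA, supplied most of the snoRNA counts, with 2528 and 1755 with LARP7 and 2323 and 2795 with IgG (edgeR log2 change 0.77 with SE 0.67, adjusted p = 0.417). Snora61 had 147 and 74.0 counts against 48.0 and 63.8 (2.02, SE 0.57, adjusted p = 0.0319). Library totals ended that call (0.62, adjusted p = 0.325), as did leaving out LARP7 replicate 1 (1.30) or IgG replicate 1 (1.45). Snora44 had 22.0 and 6 against 54.9 and 16 (0.02, SE 0.72), and its groups overlapped.

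Snora16a is present in the files as a pair of models that share reads. The shorter model had 0 counts in both LARP7 libraries and 57 and 68.9 with IgG, at least 18.0-fold lower against a floor of 3 counts over the LARP7 group (TMM-scaled, edgeR adjusted p = 0.00594). The longer model went the other way, with 18 and 34 counts against 0 and 2.15 (adjusted p = 0.00826, and 0.0922 without LARP7 replicate 2), and a posterior SD of up to 1010% of its count. The 2 models together had 18 and 34 counts with LARP7 and 57 and 71 with IgG. How RSEM divided the reads is uncertain, so neither call should be read alone, and RefSeq gives 1 locus for the symbol.

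For each 100 counts of its named snoRNAs, Gas5 had 22.2 and 9.69 counts with LARP7 and 3.41 and 3.99 with IgG. The log2 ratio differed by 1.99 (a 3.98-fold difference, exact two-sided permutation p = 0.333), beyond the SD of 0.61. Of these snoRNAs only Snord47 was placed in Gas5 by coordinates. Snord78 and both Snord80 models were assigned by the list, so which Snord80 model lies in Gas5 is not known. Most of the snoRNA counts came from Snord47 and the 77-nt Snord80. Snord47, a C/D RNA on chromosome 1 (161038092 to 161038156), had 11519 and 13184 counts against 10229 and 12597 (edgeR log2 change 1.11 with SE 0.73, adjusted p = 0.282). The 77-nt Snord80 model had 8111 and 21674 counts against 13156 and 29801 (0.30, SE 0.86, adjusted p = 0.817), higher in replicate 2 of either antibody. Its 81-nt model had 45.7 and 53.3 against 0 and 23.3 (2.90, SE 1.56, adjusted p = 0.244). Snord78 had 29.8 and 50.2 against 16.9 and 65.9 (0.77, SE 0.88, adjusted p = 0.55). None of these Gas5 snoRNAs was called in the fit of all 4 libraries. The 81-nt Snord80 was called without the filter on low counts (2.82, adjusted p = 0.0273) and without IgG replicate 2 (adjusted p = 1.59e-09), where the IgG library left had 0 counts of it. Snord78 was called without IgG replicate 2 (2.90, adjusted p = 0.00302). The values of Snord47, Snord78 and the 77-nt Snord80 turned negative with library totals (-0.23, -0.51 and -0.94), where that of Gas5 stayed at 1.21.

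Snhg1 could be set only against Snord22, a C/D RNA on chromosome 19 (8725866 to 8725991). Snord22 had 185 and 313 counts with LARP7 and 272 and 184 with IgG (edgeR log2 change 1.25 with SE 0.46, adjusted p = 0.0657; -0.11 with library totals). The stricter filter (adjusted p = 0.0471) or leaving out LARP7 replicate 1 (adjusted p = 0.0477) brought it past the threshold. Snhg1 counts exceeded those of Snord22 in every library, and the log2 ratio differed by 1.5 between antibodies (SD between replicates 0.40, exact two-sided permutation p = 0.333).

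Snord87, the C/D RNA of Snhg6 on chromosome 1 (9942470 to 9942543), had 2266 and 6171 counts with LARP7 and 3331 and 7652 with IgG (edgeR log2 change 0.45 with SE 0.82, adjusted p = 0.71). It was higher in replicate 2 of either antibody. For each 100 counts of Snord87 there were 0.53 and 0.47 counts of Snhg6 with LARP7 and 0.30 and 0.17 with IgG (log2 difference 1.12, SD 0.43, exact two-sided permutation p = 0.333). The host counts behind this ratio were at most 29.

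For Snhg5, host and snoRNAs had similar values. Snord50a had 20102 and 24604 counts with LARP7 and 8617 and 11322 with IgG (edgeR log2 change 2.14 with SE 0.78, adjusted p = 0.0655), and Snord50b had 15424 and 19303 against 7044 and 8783 (2.12, SE 0.76, 0.0633). Both missed the threshold, at values near the host's own 2.41. They were called with DESeq2 (adjusted p = 0.000886 and 0.000827) and by edgeR without a filter (0.0477 and 0.0451). The stricter filter (edgeR adjusted p = 0.0442 and 0.0427) and the replicate block (0.0203 and 0.019) also gave calls. Library totals, RLE factors and limma on log2 TPM gave none. With a library left out their values ranged from 1.60 to 3.07 and from 1.60 to 2.99. Per 100 counts of these snoRNAs, Snhg5 had 3.92 and 2.02 counts with LARP7 and 2.90 and 2.22 with IgG, a log2 difference of 0.15 (SD 0.52, exact two-sided permutation p = 1.0). Snord50a shares identical counts with the model Gm24463, and Snord50b with Gm26135, so reads of each pair cannot be told apart (posterior SD up to 21.2% and 27.7% of the count).

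**Figure D4:**
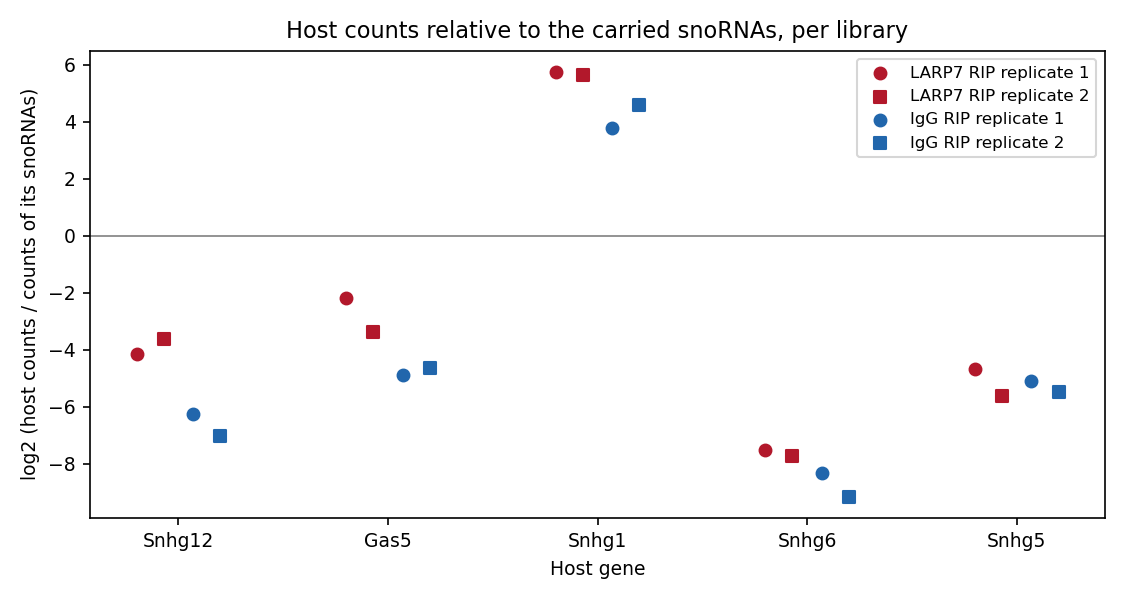
The log2 ratio of host counts to the summed counts of the named snoRNAs in that host, in each of the 4 libraries (red LARP7, blue IgG). The red points lie above the blue ones for Snhg12, Gas5, Snhg1 and Snhg6, and overlap them for Snhg5.

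The low-count pairs gave no ratio. Snora24 of Snhg8 had 7.97 and 32.7 counts with LARP7 and 15.0 and 30.7 with IgG (edgeR log2 change 0.73 with SE 0.82, adjusted p = 0.528). Snora73a of Snhg3 had 4 and 16.6 against 21 and 26.9 (-0.20, SE 0.80, adjusted p = 0.869). Snora73b, Snora17 and Snora74a had at most 6 counts in any library, and Snora43 had 0 in all 4.

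Other genes of the pathway were read from the same fit, in which 14.5% of all models were called higher and 9.69% lower (3.95% and 47.1% with library totals). Of the other non-coding hosts listed, 4 models were tested, 2 were higher and 0 lower (3 and 0 at an unadjusted p under 0.05), with a median log2 fold change of 1.58. Snhg17 (1.64, SE 0.39, edgeR adjusted p = 0.0168) and Snhg14 (1.52, SE 0.49, 0.0438) were the ones called, and neither was called with library totals (0.25 and 0.16). The longer Dancr model missed the threshold (2.65, adjusted p = 0.0502), and the shorter one had 234 counts in IgG replicate 1 and 0 elsewhere. Of 23 protein-coding hosts, 10 rose and 1 (Eef2, -1.77, adjusted p = 0.0426) fell, the median being 1.42. With library totals 3 were higher and 3 lower, and the median was 0.01. The most abundant were the ribosomal protein genes Rpl5 (0.70, adjusted p = 0.449), Rpl4 (0.86, 0.441) and Rpl7a (1.85, 0.065), none of them called, and Taf1d, a factor of RNA polymerase I transcription (2.63, adjusted p = 0.0334). Of 13 mRNAs for snoRNP proteins and their assembly factors, 1 was higher (Znhit3, 1.92, adjusted p = 0.0233) and 1 lower (Ruvbl2, -1.38, adjusted p = 0.041), with a median of -0.04, near that of all models. By library totals 6 of these mRNAs were called lower and 0 higher, the median being -1.5. Nop56 (1.42, adjusted p = 0.151) and Nop58 (0.92, 0.109), core C/D proteins whose own genes carry snoRNAs, were not called. Over RefSeq lncRNAs other than the hosts described here, 103 of 496 tested models were called higher and 28 lower, the median being 0.67. By library totals that balance reversed, to 24 higher and 159 lower, with a median of -0.72.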

How the data were processed

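RNA from LARP7 and IgG immunoprecipitates (2 libraries each) was sequenced with a small RNA kit, per the labels' protocols. The submitters' processing notes name cutadapt, Bowtie2 and RSEM with mm10; no source used here gives versions, settings, annotation or strand use. The deposited files give expected counts, TPM by effective length, isoform-weighted lengths and posterior SDs. Expected counts were rounded and tested with edgeR 4.0.16 in R 4.3.3 (filterByExpr, TMM, robust quasi-likelihood, two-sided, Benjamini-Hochberg over 12234 models, threshold 0.05). The SE is the unshrunk log2 fold change over the square root of F. TMM factors were 0.558 and 0.673 (LARP7) and 1.85 and 1.44 (IgG). Host to snoRNA ratios used a pseudocount of 0.5. Alternatives were DESeq2 1.42.0, limma 3.58.1 on log2(TPM + 1), and other scalings, filters, a replicate block and left-out libraries. The fit was tested on simulated data, where 33 of 10822 unchanged genes were called. Of the changed genes it called 1 of 42 at 2-fold, 9 of 44 at 4-fold, 30 of 41 at 8-fold and 41 of 44 at 16-fold. Unchanged genes thus made up a larger share of the simulated calls than the threshold of 0.05. The simulation changed few genes, in both directions, and built in no difference in composition between antibodies, unlike these libraries. It does not give the error rate of the host calls. Members, gene lists and tests were chosen with earlier results of these data known. The text names all 10 members, their snoRNAs with at least 10 counts in all, the 4 most abundant genes of each other list (Snhg14, Snhg17 and 2 Dancr models among them) and Rn7sk; Eef2 and Zbtb37 were named after their values were seen. Coordinates and start sequences are RefSeq's (GRCm38.p6); 35723 models (70.6%) matched it by symbol or synonym, all 10 members included. The mature sequence of Mir5117 and the snoRNA sequences are not shown.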

Additional observations from a re-analysis of the deposited data

How the results depend on the processing

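Low counts kept Snhg3 and Snhg7 out of the main fit, and 4 libraries limit every host. The causes of the changes below were not tested. Tested hosts numbered 10 without a filter, 7 with the stricter filter, 9 or 10 with a library left out and 8 in the other fits. Of these, hosts called higher numbered 5 with RLE factors, DESeq2, either other filter or the replicate block, 1 with library totals, and 0 with limma on log2 TPM (0 at an unadjusted p under 0.05). They numbered 1 to 7 with a library left out (2 without LARP7 replicate 1 or 2, 1 without IgG replicate 1, 7 without IgG replicate 2). Hosts called lower were 0 in each of these fits (0 at an unadjusted p under 0.05). The snoRNA models called higher numbered 2 in the fit of all libraries, 1 with library totals, 4 with DESeq2, 0 with limma (1 unadjusted), 5 without a filter, with the stricter filter or with the replicate block, and 1 to 6 with a library left out; the 1 called lower was 0 with limma (5 unadjusted). All gene models called higher and lower numbered 483 and 5759 with library totals and 0 and 0 with limma (89 and 5689 unadjusted), of 12234 tested. They numbered 1778 and 1026 of 12234 with RLE factors and 1433 and 653 of 10438 with DESeq2. Without a filter they were 1978 and 1341 of 26161, and with the stricter filter 2132 and 1420 of 11182. The fits with a library left out tested 12888 to 14651 models. With a library left out, 660 to 2138 were higher and 197 to 922 lower, fewest without LARP7 replicate 2.

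Same-numbered libraries deviated together at r = 0.2 over 12234 models, but nothing in the labels pairs them. With the replicate block 2088 models were higher and 1405 lower, and the host calls stayed at 5. The block turned Snora44 (-0.12) and brought Snord22 (1.24), Snord50a (2.31) and Snord50b (2.27) past the threshold.

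With TPM in place of counts every host to snoRNA ratio moved by less than its SD between replicates (1.81 for Gas5, 1.51 for Snhg1, -0.08 for Snhg5, 1.4 for Snhg6, 2.55 for Snhg12). With a library left out the ratios ranged from 1.39 to 2.59, 1.10 to 1.90, -0.33 to 0.63, 0.70 to 1.54 and 2.35 to 3.12. With 2 libraries a group such a move can never exceed that SD, so these ranges do not show stability.

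Values changed sign with library totals for Snhg8 (-1.25), Snord47 (-0.23), Snord78 (-0.51), the 77-nt Snord80 (-0.94), Snord22 (-0.11), Snord87 (-0.80), Snora24 (-0.54), Snora44 (-1.49) and Snord99 (-0.61). They did with limma on TPM for Mir5117 (-0.12), Snhg4 (-0.13), Snhg5 (-0.22), Snhg6 (-0.04), Snhg8 (-0.56), Snord47 (-1.25), Snord78 (-1.02), the 77-nt Snord80 (-1.95), Snord22 (-1.32), Snord50a (-0.15), Snord50b (-0.18), Snord87 (-1.85), Snora24 (-1.13), Snora44 (-1.93), Snora61 (-0.51) and Snord99 (-1.61). Without a filter Snora44 was -0.06. With a library left out, ranges that crossed 0 were -0.06 to 2.51 for Snhg4, -0.72 to 1.87 for Snhg8, -0.12 to 2.90 for Snord78, -0.45 to 1.83 for the 77-nt Snord80, -1.47 to 0.65 for Snora73a, -0.32 to 1.99 for Snord87, -0.51 to 2.08 for Snora24 and -1.33 to 0.73 for Snora44.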
